A study of Mus musculus with 8 samples.

Results

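Levels of 5 genes of the cochlear gap junction network and of its cation-chloride cotransport were measured in single cells of the mouse organ of Corti. The genes were Gjb2 (connexin 26), Gjb6 (connexin 30), Gja1 (connexin 43), Slc12a2 (the Na-K-Cl cotransporter NKCC1) and Slc12a7 (the K-Cl cotransporter KCC4). They were chosen by symbol, as 5 of the 27998 genes that every one of the 8 libraries lists, and each symbol was found once in all 8 libraries. Counts are of unique molecular identifiers (UMIs), each of which tags 1 captured transcript, and levels are given as CPM, the UMIs of a gene scaled to a fixed total of UMIs in the cells in question. CPM compares cells for 1 gene, and levels of different genes are not ranked against each other.

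All mice carried Fgfr3iCre+, an inducible Cre that acts in Deiters' and pillar supporting cells (SCs), together with Atoh1-HA+, a Cre-dependent transgene of the hair cell (HC) transcription factor Atoh1 under a CAG promoter. They also carried Chrna9-GFP+, a reporter of hair cells, and Rosa26-CAG-loxP-stop-loxP-tdTomato+, a reporter of Cre activity, and the control mice carried the same alleles. Groups are given as the libraries are labelled. Tamoxifen, which activates the Cre, was injected at postnatal days 12 to 13 (P12-13) in the groups Coch + Tmx P26 and Coch + Tmx P33. These had n = 3 and n = 2 libraries, with cells collected at P26 and P33. The uninjected groups were Coch P12 (n = 2), collected at P12, and Coch P33 (n = 1). SCs that turn on hair cell genes after this induction are called converted hair cells (cHCs). The paper states 2 biological replicates for each group, while the labels here give 3, 2, 2 and 1 libraries. Whether a label is wrong was not tested. The number of animals behind a library is not given in the sources used here. P-values between groups measure the spread between libraries. Those between classes, with the library as a block, measure how far the class difference varies over libraries. Where only 2 libraries held both classes, they rest largely on the spread that edgeR shares over genes. The lateral wall of the cochlea, with its stria vascularis, had been removed before dissociation, and no group of cells earned the name of strial marginal or intermediate cells. 

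Gap junctions join the supporting cells and the other epithelial cells of the cochlear duct into one network, and the fibrocytes and other connective tissue cells into another. Potassium that leaves the hair cells is taken up by the cells around them, passes through these networks and is returned to the endolymph by the stria vascularis. Connexins 26 and 30 form most of these junctions and mutations of either gene cause deafness. KCC4 in Deiters' cells carries potassium and chloride together out of or into the cell, and its loss in mice causes deafness. NKCC1 loads potassium into strial marginal cells and into some fibrocytes. Hair cells themselves are not coupled by gap junctions.

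Barcodes with at least 500 detected genes, under 25% mitochondrial UMIs and no doublet call were kept (5970 of 8061), and total UMIs per library ran from 3972800 to 13423524. The kept cells were clustered without the 5 genes and without 50 further genes of the same pathways, so that none of them placed a cell, and 21 of the 32 clusters were named from marker genes as 13 classes. No pair of libraries shared more than 3 barcodes. SC-like cells (128) held Fgfr3 at 326 CPM, cHC-like cells (115) held it at 331 CPM with Atoh1 at 3149 CPM, and HC-like cells (62) held Ocm, the outer hair cell calcium buffer oncomodulin, at 14113 CPM. The nonsensory epithelial-like class (630 cells, 4 clusters) and the fibrocyte-like class (1252 cells, 2 clusters) were the nonsensory and connective tissue classes tested below. The larger stromal-like class (1617 cells, 4 clusters) was not tested. The library labelled as Coch + Tmx P26 rep 3 went against its label: its Atoh1 stood at 12.4 CPM over all kept cells, against 90.9 to 517 CPM in the other 4 induced libraries and 16.5 to 23.5 CPM in the uninjected ones, and it held 0 cHC-like cells. Calls of the 5 genes between classes that rest on it are given with and without it. Tests between groups kept it in Coch + Tmx P26, as labelled, in the main fit.

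Gjb2 and Gjb6 are neighbours on mouse chromosome 14 (build GRCm38, RefSeq annotation). Gjb2 (ENSMUSG00000046352) lies at chr14:57098602-57104702 and Gjb6 (ENSMUSG00000040055) at chr14:57123301-57133611, both on the minus strand and 18598 bases apart, with 1 annotated gene between them, the noncoding RNA Gm32912. Because their levels moved together across most cells below, the 250 bases before each start are shown, 5′ to 3′ on the strand of the gene, from the RefSeq promoter table, which held 4 of the 5 genes. The capitals mark the GC box core GGGCGG or its reverse complement CCGCCC, the letters that Sp1-type factors recognise.
Gjb2, chr14:57104703-57104952: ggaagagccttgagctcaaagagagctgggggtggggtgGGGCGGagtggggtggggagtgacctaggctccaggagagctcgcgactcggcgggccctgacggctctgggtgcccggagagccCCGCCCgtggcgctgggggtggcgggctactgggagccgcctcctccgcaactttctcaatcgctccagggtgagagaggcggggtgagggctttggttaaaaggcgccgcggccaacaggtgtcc
Gjb6, chr14:57133612-57133861: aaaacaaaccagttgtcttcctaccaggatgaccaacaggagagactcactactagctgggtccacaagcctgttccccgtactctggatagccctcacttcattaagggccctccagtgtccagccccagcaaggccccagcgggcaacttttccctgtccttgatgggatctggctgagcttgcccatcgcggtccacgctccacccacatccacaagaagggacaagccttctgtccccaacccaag
The window of Gjb2 held 2 such matches, at positions 40 and 125 from its 5′ end, and that of Gjb6 held 0, while 32.7% of 32851 mouse promoter windows of the same length held at least 1 on either strand. G and C made up 69.2% of the Gjb2 window and 56.8% of the Gjb6 window, against a median of 52.4% over all windows. Neither window held TATAAA (12.4% of all windows on either strand) or the E-box letters CAGCTG (13.0%) and CAGATG (14.4%), which Atoh1-type factors can bind. A match or its absence here describes these letters only.

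By its mean over libraries with at least 10 cells, Gjb2 was highest among the named classes in nonsensory epithelial-like cells, lower in SC-like cells and at the level of unrelated cells in cHC-like and fibrocyte-like cells. In the nonsensory epithelial-like class it stood at 955, 1789 and 819 CPM in Coch + Tmx P26 (the last in the library labelled rep 3), 749.8 and 1133 CPM in Coch + Tmx P33, 1069 and 1216 CPM in Coch P12 and 844 CPM in Coch P33. In SC-like cells of the 5 libraries with at least 10 of them it stood at 163 CPM in the library labelled as Coch + Tmx P26 rep 3, 244 and 263 CPM in Coch + Tmx P33, 322 CPM in Coch P12 rep 1 and 213 CPM in Coch P33. The 2 classes did not overlap in any of these libraries. In fibrocyte-like cells Gjb2 ran from 2.5 to 34.2 CPM over the 8 libraries. Macrophage-like cells, which should lack the gene, held it at 0 to 40.6 CPM, so the fibrocyte-like level was within that background.

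Gjb6 was high in both SC-like and nonsensory epithelial-like cells. It stood at 838, 1152 and 988 CPM in the nonsensory epithelial-like cells of Coch + Tmx P26, 648 and 1018 CPM in Coch + Tmx P33, 619 and 898 CPM in Coch P12 and 940.4 CPM in Coch P33. SC-like cells held it at 979 CPM in the library labelled as Coch + Tmx P26 rep 3, 587 and 438 CPM in Coch + Tmx P33, 380.0 CPM in Coch P12 rep 1 and 868 CPM in Coch P33. The ranges of the 2 classes overlapped, although SC-like cells were the lower in all 5 libraries. Fibrocyte-like cells held Gjb6 at 1.5 to 37.4 CPM and macrophage-like cells at 2.6 to 28.5 CPM.

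**Figure D1:**
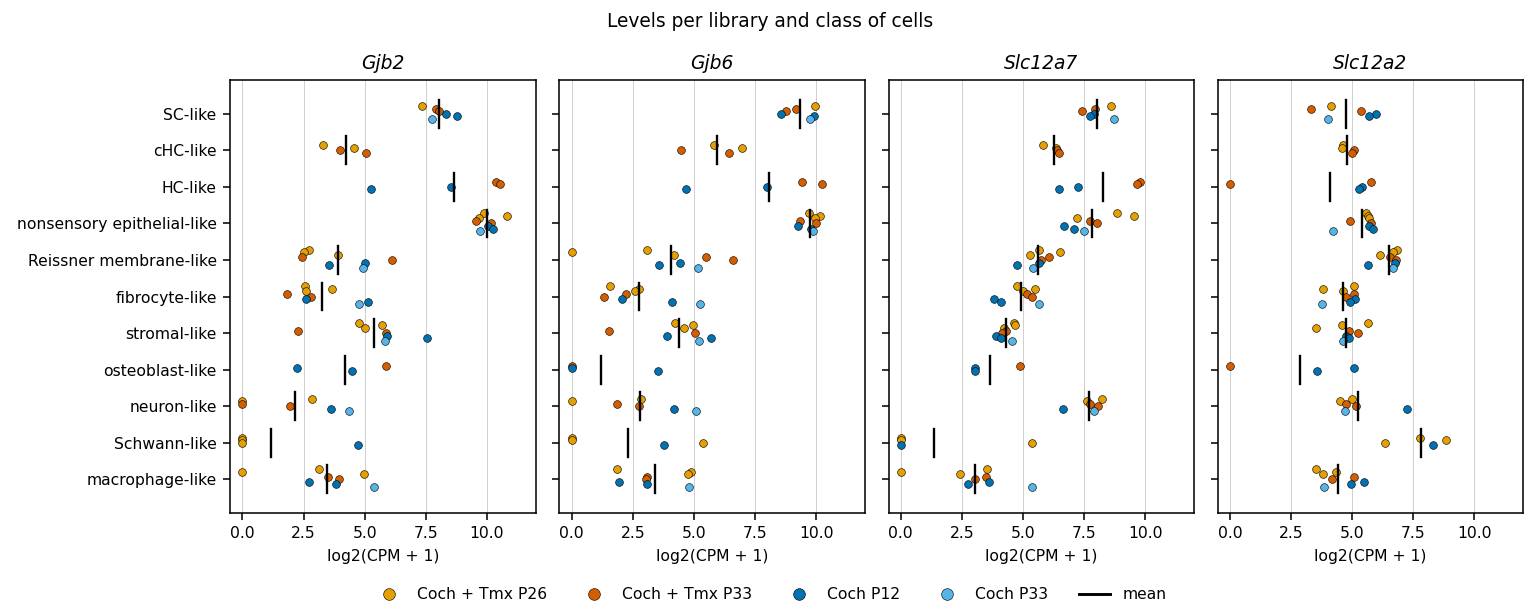
Levels of Gjb2, Gjb6, Slc12a7 and Slc12a2 as log2(CPM + 1) on the x axis, by class of cells on the y axis. Each point is 1 library with at least 5 cells of the class, coloured by group, and the black line is the mean over those libraries. Gjb2 and Gjb6 sit far right in SC-like and nonsensory epithelial-like cells and left in cHC-like and fibrocyte-like cells, while Slc12a2 changes little across these classes.

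The comparison of cHC-like with SC-like cells asks what became of the network genes in cells that left the supporting cell state. Both connexins and Slc12a7 were lower in cHC-like cells and Slc12a2 was not. In Coch + Tmx P33, the 2 libraries with at least 10 cells of both classes, Gjb2 stood at 14.7 and 32.4 CPM in cHC-like cells (41 and 39 cells) against 244 and 263 CPM in SC-like cells (16 and 11 cells), and its log2 fold change was -3.47 (SE 0.35, adjusted p = 9.0e-10, edgeR quasi-likelihood test with library as a block, Benjamini-Hochberg over all genes tested). Gjb6 stood at 21.2 and 86.3 CPM against 587 and 438 CPM, a log2 ratio of -3.39 (SE 0.34, adjusted p = 5.9e-10 by the same test). All cHC-like libraries lay below all SC-like libraries for both genes, Coch + Tmx P26 included, where cHC-like cells held Gjb2 at 8.8 CPM (29 cells) and 22.7 CPM (6 cells) and Gjb6 at 55.96 and 125 CPM. Slc12a7 stood at 83.2 and 88.1 CPM in cHC-like against 244 and 167 CPM in SC-like cells of those libraries and fell by 1.28 on the log2 scale (SE 0.30, adjusted p = 8.6e-04 by edgeR), although its adjusted p was 0.43 with DESeq2. Slc12a2 stood at 32.6 and 30.6 CPM against 9.0 and 39.8 CPM, with a log2 difference of 0.59 (SE 0.67, adjusted p = 0.53 by edgeR). Of the 4 testable genes, 3 were lower, where 36.0% of the 5742 genes tested passed the threshold and 16.1% were lower. The comparison rests on 2 libraries of 1 group, and with either left out the single remaining pair gave log2 differences of -2.98 to -3.96 for Gjb2, -2.33 to -4.73 for Gjb6 and -0.92 to -1.54 for Slc12a7, with no test possible within 1 pair. 

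Connexin UMIs were also counted per barcode, pooled over libraries, so barcodes are not replicates here. SC-like barcodes included 31 and 8 from Coch P12, 25 from Coch P33 and 32 from the library labelled as Coch + Tmx P26 rep 3. These libraries held 0 cHC-like barcodes, so age and induction differ between the pooled classes and cannot be told apart from class. Gjb2 was at 0 UMIs in 7 of 128 SC-like barcodes and in 96 of 115 cHC-like barcodes, whose median totals were close (14253 and 12941 UMIs). Gjb6 was at 0 in 5 of 128 and 89 of 115, and Slc12a7 in 21 of 128 and 58 of 115. Most SC-like barcodes held both connexins (117 of 128), 4 held Gjb2 without Gjb6, 6 held Gjb6 without Gjb2 and 1 held neither. After every cell was thinned to 1000 UMIs, Gjb2 was found in 23.4% of SC-like cells (95% exact binomial interval 16.4 to 31.7%) and 0.87% of cHC-like cells (0.022 to 4.75%), against 0.97% of macrophage-like cells (0.26 to 2.46%, median 6170 UMIs before thinning). Unthinned, the shares were 94.5% of SC-like and 16.5% of cHC-like cells, and 7.75% of macrophage-like cells. Gjb2 in cHC-like cells was thus at the share of the background. Slc12a7 was found in 27.3% of thinned SC-like cells (19.8 to 35.9%) and 10.4% of thinned cHC-like cells (5.51 to 17.5%). Both were above the 0.73% of macrophage-like cells (0.15 to 2.11%), so cHC-like cells held some of its signal. Gjb6 in cHC-like cells lay between, at 4.35% (1.43 to 9.85%) against 41.4% in SC-like cells (32.8 to 50.4%) and 1.21% in macrophage-like cells (0.39 to 2.80%). Such intervals and all Poisson limits here cover counting error only.

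**Figure D2:**
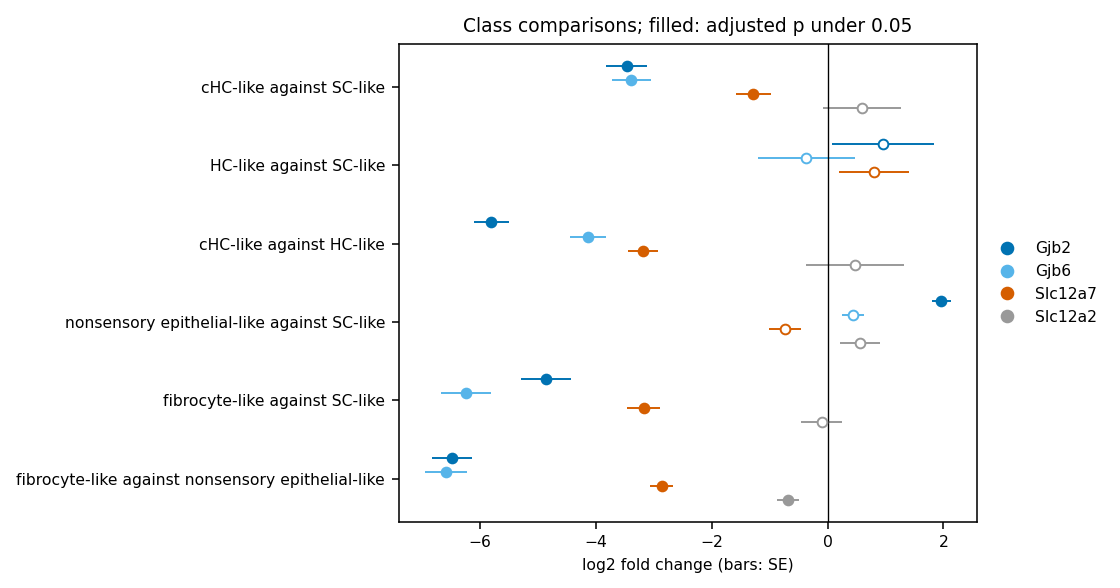
Log2 fold changes (x axis) of Gjb2, Gjb6, Slc12a7 and Slc12a2 in the 6 comparisons between classes (y axis), from edgeR, with bars of 1 standard error. Filled points passed an adjusted p of 0.05: both connexins sit left of -3 in cHC-like against SC-like cells, and Gjb2 sits right, at 1.97, in nonsensory epithelial-like against SC-like cells.

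HC-like cells were mixed for these genes. Gjb2 stood at 64.8 and 0 CPM in Coch + Tmx P26 rep 1 and rep 2 (4 and 3 cells), 770 CPM in the library labelled as Coch + Tmx P26 rep 3 (4 cells), 1336 and 1469 CPM in Coch + Tmx P33 (7 cells each), 365 and 37.4 CPM in Coch P12 (28 and 6 cells) and 0 CPM in Coch P33 (3 cells). The libraries thus ran from nothing to levels that in Coch + Tmx P33 were above those of nonsensory epithelial-like cells. Over the 62 barcodes, 42 held 0 Gjb2 UMIs, 4 held 1 or 2, and 16 held 9 to 57. Those 16 were the barcodes with at least 2 UMIs of Slc1a3, the glutamate transporter of inner phalangeal and border cells, which surround inner hair cells. Their median total was 19191 UMIs against 6688 in the other 46. The 16 held Gjb2 at 1441 CPM, Gjb6 at 1069.97 CPM, Slc12a7 at 840.4 CPM, Slc1a3 at 793 CPM and Sox2, a transcription factor of supporting cells, at 196 CPM, with Ocm at 341 CPM. They also held the inner hair cell genes Otof at 773 CPM and Slc17a8 at 658 CPM. Their inner phalangeal and border cell list was not whole: Gata3 stood at 662 CPM, Tectb at 169 CPM and Fabp7 at 115 CPM, while Dkk3 was at 14 CPM and Matn4 at 0. In the other 46 barcodes Gjb2 and Gjb6 stood at 17.8 CPM each and Slc12a7 at 53.5 CPM, beside Ocm at 26241 CPM and Slc26a5, the outer hair cell motor prestin, at 428 CPM. The part of the Slc1a3-holding barcodes in the HC-like levels was not tested beyond leaving them out. With their higher totals and genes of both supporting and hair cells, whether each of them holds 1 cell or more was not tested, so the HC-like levels of these genes cannot be read as those of hair cells.

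**Figure D3:**
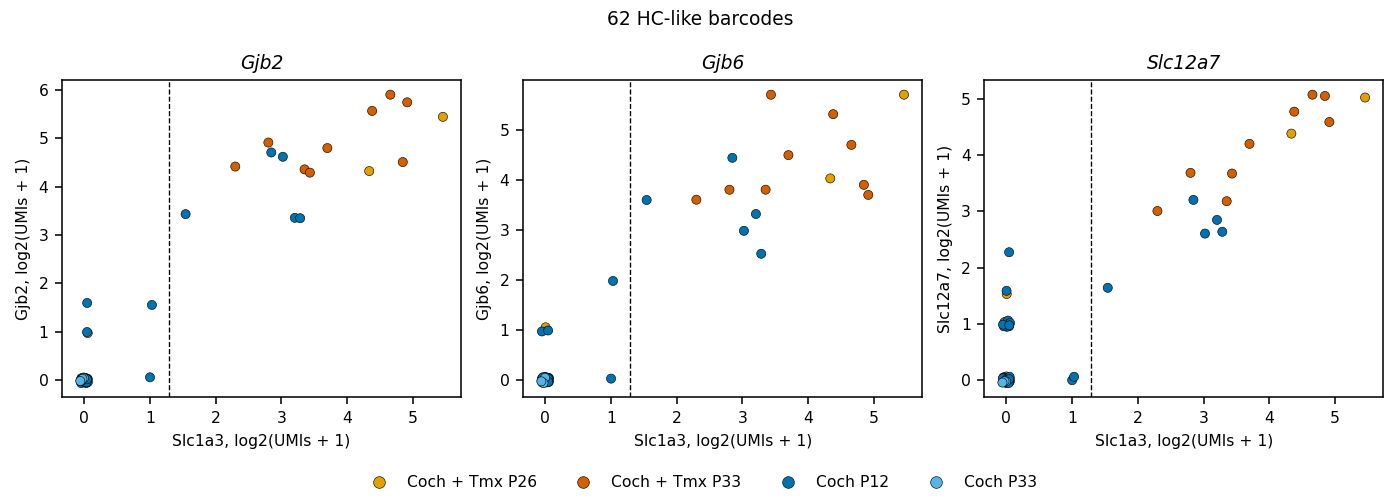
UMIs of Gjb2, Gjb6 and Slc12a7 (y axes) against UMIs of Slc1a3 (x axes) in the 62 HC-like barcodes, both as log2(UMIs + 1) with a small shift of overlapping points, coloured by group. The dashed line marks 2 Slc1a3 UMIs: the 16 barcodes to its right hold 9 to 57 Gjb2 UMIs, and those to its left hold 0 to 2.

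With all barcodes, HC-like cells did not differ from SC-like cells past the threshold in the 4 libraries with at least 5 cells of both (Coch + Tmx P33 and Coch P12). The log2 fold change was 0.95 for Gjb2 (SE 0.88, adjusted p = 0.45, edgeR), -0.36 for Gjb6 (SE 0.83, adjusted p = 0.77, edgeR) and 0.81 for Slc12a7 (SE 0.60, adjusted p = 0.35, edgeR), and 0 of the 3 testable genes passed where 25.7% of 1955 genes did. An unadjusted p under 0.05 was reached by 0 of the 3, and DESeq2 also called 0. Without Coch P12 rep 2 Gjb2 rose, with a log2 ratio of 1.76 (adjusted p = 0.043, edgeR). With the 46 Slc1a3-poor barcodes alone, a choice made after the data were seen that left the 2 Coch P12 libraries, the log2 differences were -3.99 for Gjb2, -4.66 for Gjb6 and -1.85 for Slc12a7. These are descriptions with no test, since the split had removed every barcode with over 2 Gjb2 UMIs, and nothing is read from the 52.2% of genes past the threshold in that fit. 

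Against HC-like cells of the same 2 Coch + Tmx P33 libraries, cHC-like cells were lower in Gjb2 by a log2 ratio of -5.80 (SE 0.30, adjusted p = 9.7e-07, edgeR), in Gjb6 by -4.14 (SE 0.31, adjusted p = 9.6e-06, edgeR) and in Slc12a7 by -3.18 (SE 0.26, adjusted p = 1.3e-05, edgeR), and 3 of 4 testable genes were called where 20.1% of 5569 were. Slc12a2 differed by 0.48 (SE 0.85, adjusted p = 0.75, edgeR). The HC-like cells of these libraries were 14 barcodes, of which 9 held at least 2 Slc1a3 UMIs, and the 3 and 2 that remained without those were too few to test. With barcodes called doublets kept in, 0 of the 4 genes passed. 

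Within the epithelium, Gjb2 and Gjb6 did not keep one ratio. Gjb2 was higher in nonsensory epithelial-like than in SC-like cells in the 5 libraries that held at least 10 of both, with a log2 ratio of 1.97 (SE 0.16, adjusted p = 4.4e-05, edgeR), and without the library labelled as Coch + Tmx P26 rep 3 it was 1.85 (adjusted p = 3.6e-04, edgeR). Gjb6 differed by 0.44 (SE 0.19, adjusted p = 0.16, edgeR), Slc12a7 by -0.73 (SE 0.28, adjusted p = 0.11, edgeR) and Slc12a2 by 0.56 (SE 0.34, adjusted p = 0.33, edgeR). Of the 4 genes 1 thus passed, where 15.8% of 5820 genes did. At a finer clustering (Leiden resolution 2.0 in place of 1.0) the Gjb2 difference was 1.11 with an adjusted p of 0.17 by edgeR, and without Coch + Tmx P33 rep 2 Slc12a7 also passed, at -1.01 (adjusted p = 0.012, edgeR). 

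The number of Gjb2 UMIs per Gjb6 UMI shows the same without regard to depth. In the 6 libraries with enough SC-like cells it ran from 0.17 to 0.85 (median 0.44) in SC-like cells and from 0.83 to 1.73 in nonsensory epithelial-like cells, and it was lower in SC-like cells in 6 of 6 libraries. In cHC-like cells it was 0.16 and 0.18 in Coch + Tmx P26 and 0.69 and 0.38 in Coch + Tmx P33, on 2 to 18 Gjb2 UMIs per library. These ratios are descriptions without a test.

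The 4 clusters of the nonsensory epithelial-like class differed widely. The cluster led by Fam25c, Ano1 and Otol1, the gene of the inner ear collagen otolin, held Gjb2 at 1823 CPM (1077 to 3565 CPM over the libraries) and Gjb6 at 1456 CPM (670.2 to 2419 CPM). The cluster led by Ucma, Wfdc18 and Padi1, which also held Epyc and the anion exchanger gene Slc26a4, had Gjb2 at 1042 CPM and Gjb6 at 1021 CPM. In the cluster with Fabp7, found in the 2 Coch P12 libraries only (43 and 11 cells), Gjb2 stood at 654 and 497 CPM and Gjb6 at 187 and 176 CPM. The cluster with Krt18, a keratin of simple epithelia, had both genes low, Gjb2 at 143 CPM and Gjb6 at 169 CPM. It was absent from the Coch P12 libraries, so the make-up of the class differed between P12 and later groups.

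**Figure D4:**
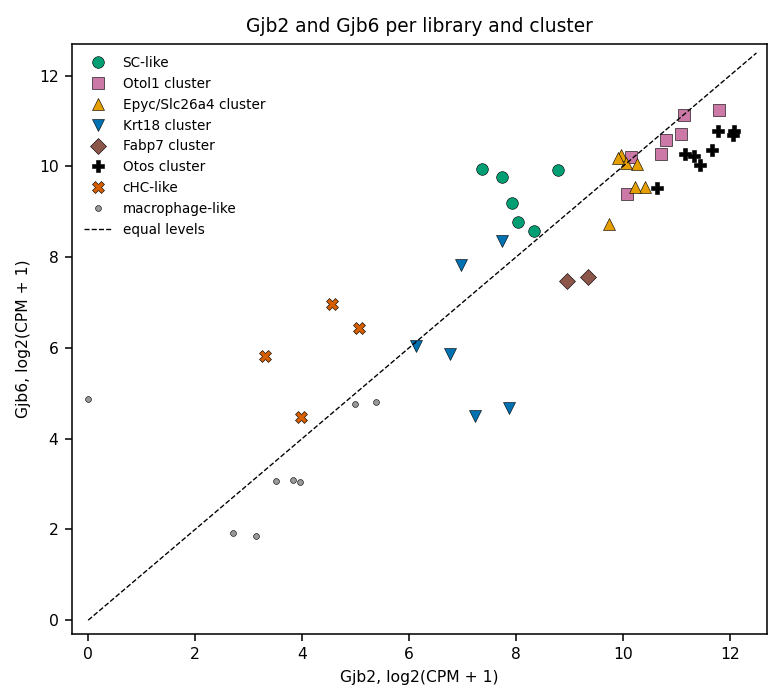
Gjb6 (y axis) against Gjb2 (x axis), both as log2(CPM + 1), in SC-like, cHC-like and macrophage-like cells, the 4 nonsensory epithelial-like clusters and the unnamed Otos cluster. Each point is 1 library and the dashed line is a guide at a ratio of 1, not a ranking of the genes: SC-like and cHC-like points lie above it, the Otos cluster below it.

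Fibrocyte-like cells held little of either connexin. The stromal-like class held Gjb2 at 3.8 to 186 CPM over the libraries, and 1 of its clusters, led by H19 and Cemip, at 135 and 239 CPM in Coch P12 (108 and 131 cells). Against SC-like cells (5 libraries), fibrocyte-like cells were lower in Gjb2 (log2 fold change -4.86, SE 0.43), Gjb6 (-6.25, SE 0.43) and Slc12a7 (-3.17, SE 0.28), with edgeR adjusted p-values of 4.1e-06, 6.5e-07 and 4.1e-06 (-4.87, -6.06 and -3.06 without the library labelled as Coch + Tmx P26 rep 3, all still called), and 3 of 4 testable genes passed where 49.1% of 5921 genes did. Against nonsensory epithelial-like cells (8 libraries) the log2 fold changes were -6.49 (SE 0.34) for Gjb2, -6.58 (SE 0.36) for Gjb6 and -2.87 (SE 0.21) for Slc12a7, and Slc12a2 was lower too, by -0.68 (SE 0.18, adjusted p = 0.0051, edgeR). All 4 genes passed, where 59.0% of 7773 genes did. Without that library they were -6.42, -6.50, -2.92 and, for Slc12a2, -0.61 (adjusted p = 0.017, edgeR), and all 4 still passed. Slc12a2 did not differ past the threshold from SC-like cells (-0.10, SE 0.36, adjusted p = 0.84, edgeR). The fibrocyte-like name rests on 3 markers in each cluster that passed both limits of the naming rule, at least 25% of cells and 2 times the level in other cells. Npy and Notum were among the leading genes of the larger cluster and Otor (otoraplin) among those of the other. Coch (cochlin) was found in 96.6% and 93.8% of their cells. Otos, which marks fibrocytes of the lateral wall and limbus, stood at only 94.1 and 14.98 CPM in these 2 clusters. The cluster led by Col13a1, found in Coch P12 only, also had Emilin2 among its leading genes, which the paper uses as a marker of tympanic border cells. Whether the class holds border cells was not tested, so its levels cannot be read as those of fibrocytes in general.

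A cluster of 135 cells with both Otos and high connexins was not named. It was led by Fxyd2, Dct (found in only 2.22% of its cells) and Otos. Only 2 markers of its best list passed both limits of the naming rule. By share of cells alone, Coch was found in 91.1%, Pou3f4 in 80.7%, the carbonic anhydrase gene Car3 in 76.3% and Tbx18 in 75.6%. Otos was found in 48.1%, Otor in 38.5% and Slc4a11 in 5.93%. The cluster had Otos at 5217 CPM, Coch at 1941 CPM and Car3 at 1798 CPM, while Fgfr3 stood at 5.7 CPM and Prox1 at 0.71 CPM. The fibrocyte transcription factor genes Tbx18 and Pou3f4 stood at 288 and 473 CPM in it, against 279.98 and 403 CPM and 189.5 and 476 CPM in the 2 fibrocyte-like clusters, and the epithelial gene Epcam at 5.7 CPM. The levels given for fibrocyte-like cells do not cover this cluster. Its Gjb2 level was 2574, 2775 and 2300 CPM in Coch + Tmx P26 (44, 6 and 7 cells), 1591 and 3535 CPM in Coch + Tmx P33 (6 and 10 cells), 4243 and 4306 CPM in Coch P12 (24 and 16 cells) and 3243 CPM in Coch P33 (22 cells). Each of these values was above that of the nonsensory epithelial-like class in the same library. Gjb6 stood at 731 to 1763 CPM and Slc12a7 at 0 to 44.4 CPM, so the cluster was rich in connexins and poor in Slc12a7. Its ratio of Gjb2 to Gjb6 UMIs was 1.85 to 2.66, higher than in the nonsensory epithelial-like class in 8 of 8 libraries.

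Gja1, a connexin of bone, vessel and glial cells, was nearly absent from the epithelium. It had 0 UMIs in SC-like, cHC-like, HC-like, Reissner membrane-like, Schwann-like and neutrophil-like cells, which allows a level of up to 1.67 CPM in SC-like, 1.88 CPM in cHC-like and 4.74 CPM in HC-like cells at a limit of 3 counts. In SC-like cells 0 of 128 barcodes held a UMI, which allows a share of barcodes with a UMI of up to 2.34% and sets no limit on the cells that express the gene. Nonsensory epithelial-like cells held 3 UMIs over 630 cells and fibrocyte-like cells 11 UMIs over 1252 cells. Its highest named class was osteoblast-like (82 cells), with 145 and 107 CPM in the 2 Coch P12 libraries that gave 71 of those cells. Gja1 was too low for the tests between classes.

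Slc12a7 was shared by SC-like cells, nonsensory epithelial-like cells and neurons. Its mean over libraries with at least 10 cells was 291 ± 107 CPM in SC-like cells (SD, n = 5), 279.7 ± 218 CPM in nonsensory epithelial-like cells (SD, n = 8) and 255 ± 37.7 CPM in neuron-like cells (SD, n = 4), and these 3 neighbours in the order of levels overlapped. Without the library labelled as Coch + Tmx P26 rep 3 the first 2 means were 268 ± 108 CPM (SD, n = 4) and 299 ± 228 CPM (SD, n = 7), in the opposite order. It was 75.8 ± 17.3 CPM in cHC-like cells (SD, n = 3), 51.5 ± 19.7 CPM in Reissner membrane-like cells (SD, n = 8) and 31.9 ± 12.9 CPM in fibrocyte-like cells (SD, n = 8).

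Slc12a7 was also compared between groups within a class. In nonsensory epithelial-like cells it stood at 102 and 133 CPM in Coch P12, 464 and 742 CPM in Coch + Tmx P26 rep 1 and rep 2, 146 CPM in the library labelled as Coch + Tmx P26 rep 3, 213 and 257 CPM in Coch + Tmx P33 and 181 CPM in Coch P33. Every later library was above both Coch P12 libraries, but how many of all genes lie apart in this way was not counted. Coch + Tmx P26 differed from Coch P12 by 1.94 on the log2 scale (SE 0.50, adjusted p = 0.15, edgeR), and without the library labelled rep 3 by 2.33 (adjusted p = 0.014, edgeR). Coch + Tmx P33 differed from Coch P12 by 1.07 (SE 0.51, adjusted p = 0.42, edgeR) and from Coch + Tmx P26 by -0.86 (SE 0.47, adjusted p = 0.90, edgeR). None of the 4 testable genes passed in these 3 comparisons, where 0.37%, 0.977% and 0.0206% of 9720 genes did. By unadjusted p under 0.05 in edgeR, Slc12a7 alone passed, in Coch + Tmx P26 against Coch P12, and DESeq2 called it there (adjusted p = 0.00783) and called 0 of the 4 in the other 2 comparisons. Age and induction differ together between Coch P12 and the induced groups and cannot be told apart, and Coch P33 has 1 library and no test. 

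The clusters within the class contributed unequally to each library, so the Otol1 cluster, present in every group, was also taken alone, a choice made after the data were seen. There Slc12a7 stood at 199 and 239 CPM in Coch P12 (52 and 38 cells), 606, 1365 and 958 CPM in Coch + Tmx P26 (35, 28 and 8 cells), 699 and 695 CPM in Coch + Tmx P33 (11 and 39 cells) and 688 CPM in Coch P33 (4 cells). All 6 later libraries stood at 606 CPM or more and both Coch P12 libraries at 239 CPM or less, again without a count over all genes. The log2 difference from Coch P12 was 2.08 in Coch + Tmx P26 (adjusted p = 0.0767, edgeR) and 1.64 in Coch + Tmx P33 (adjusted p = 0.13, edgeR), and neither passed.

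In fibrocyte-like cells Slc12a7 was low, and it was higher after P12 in the main edgeR fit but not by DESeq2. It stood at 13.2 and 16.2 CPM in Coch P12, 26.3, 44.5 and 30.7 CPM in Coch + Tmx P26, 34.8 and 40.7 CPM in Coch + Tmx P33 and 48.7 CPM in Coch P33. Macrophage-like cells held Slc12a7 at 0 to 40.6 CPM (mean 11.2 CPM), a range that covers both Coch P12 values and part of the later ones. Coch + Tmx P33 was higher than Coch P12 by 1.33 on the log2 scale (SE 0.33, adjusted p = 0.033, edgeR) and Coch + Tmx P26 by 1.17 (SE 0.30, adjusted p = 0.039, edgeR), 1 of 4 testable genes in each. The connexins, near background in this class, differed by -2.27 (SE 0.99, adjusted p = 0.24, edgeR) for Gjb2 and -1.82 (SE 1.01, adjusted p = 0.37, edgeR) for Gjb6 in the first comparison, and by -1.51 (SE 0.76, adjusted p = 0.32, edgeR) for Gjb2 and -1.28 (SE 0.80, adjusted p = 0.44, edgeR) for Gjb6 in the second. Over all genes 4.92% and 5.21% of 9481 genes passed. The 2 comparisons share their Coch P12 libraries. Nearly all Coch P12 cells of the class belonged to another cluster than the later ones (445 of 455 and 154 of 161 cells in the cluster led by Col13a1, which held 0 cells of later libraries), and its part in the difference was not tested. The adjusted p rose above the threshold without Coch + Tmx P33 rep 1 (0.19), Coch + Tmx P33 rep 2 (0.23) or Coch P12 rep 1 (0.16) in the first comparison. In the second it did so without Coch + Tmx P26 rep 2 (0.19), the library labelled as Coch + Tmx P26 rep 3 (0.072), Coch + Tmx P33 rep 1 (0.068), Coch + Tmx P33 rep 2 (0.064) or Coch P12 rep 1 (0.22). DESeq2 called neither. Coch + Tmx P33 and Coch + Tmx P26 differed by 0.16 (SE 0.32, adjusted p = 0.96, edgeR), with 0 of 4 genes past the threshold and 0.0211% of all genes, and 0 of the 4 by an unadjusted p under 0.05 or by DESeq2.

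In SC-like cells none of the tested genes passed between groups. Between Coch + Tmx P33 (16 and 11 cells) and Coch P12 (31 and 8 cells) Gjb2 differed by -0.65 (SE 0.34, adjusted p = 0.31, edgeR), Gjb6 by -0.44 (SE 0.46, adjusted p = 0.67, edgeR) and Slc12a7 by -0.17 (SE 0.35, adjusted p = 0.85, edgeR), and 0 of 3 testable genes passed where 6.31% of 2822 genes did, and 0 by an unadjusted p under 0.05 or by DESeq2. Gjb2 was lower in both Coch + Tmx P33 libraries (244 and 263 CPM) than in both Coch P12 libraries (322 and 439 CPM), and so was Slc12a2 (9.0 and 39.8 against 62.5 and 50.6 CPM), which was too low for the test. The share of all genes that lie apart in this way was not counted, so no difference is read from it. Gjb6 and Slc12a7 overlapped. With 2 libraries of few cells in each group, differences of this size could not be told from the spread.

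Slc12a2 had a different pattern from the other 4 genes. It was highest in Schwann-like cells, which held 453 and 315 CPM in the 2 libraries with at least 10 of them (15 and 12 cells), followed by Reissner membrane-like cells at 92.6 ± 22.2 CPM (SD, n = 8). Among libraries with at least 10 cells these did not overlap. The Reissner membrane-like range, 49.5 to 112 CPM, overlapped that of nonsensory epithelial-like cells, 17.7 to 57.7 CPM. Fibrocyte-like cells held 25.4 ± 8.5 CPM (SD, n = 8) and macrophage-like cells 22.5 ± 11.95 CPM (SD, n = 8), so SC-like, cHC-like, fibrocyte-like and macrophage-like cells could not be separated for this gene. An unnamed cluster of 53 cells with the myelin genes Mog and Mag also held Slc12a2 at 285 CPM.

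The genes that work with the members were read from lists of 50 further genes. Of 20 other connexins and pannexins, 0 reached the tests between epithelial classes. Gjc1 (connexin 45) was tested in the fibrocyte-like comparisons and was higher there than in SC-like cells (log2 fold change 7.93, SE 0.95, adjusted p = 3.8e-04, edgeR) and than in nonsensory epithelial-like cells (4.29, SE 0.41, adjusted p = 2.7e-07, edgeR), at 29.4 CPM against 0.56 and 1.41 CPM over all libraries. The myelin connexins were held by other cells, with Gjb1 at 1043 CPM in the cluster with Mog, and Gjc3 at 489.5 CPM in Schwann-like cells. Of 3 scaffold genes, Tjp1 (ZO-1, which binds connexin ends) was higher in fibrocyte-like than in nonsensory epithelial-like cells (3.40, SE 0.17, adjusted p = 3.2e-10, edgeR) and than in SC-like cells (3.37, SE 0.26, adjusted p = 1.3e-06, edgeR). In these fibrocyte-like comparisons 59.0% and 49.1% of all genes passed. 

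Among 12 potassium and chloride channels of the cochlea, both inward rectifiers of supporting cells were lower in cHC-like cells. Kcnj10 (Kir4.1) was lower in cHC-like than in SC-like cells by a log2 ratio of -4.43 (SE 0.57, adjusted p = 9.6e-08, edgeR) and Kcnj16 (Kir5.1) by -2.29 (SE 0.36, adjusted p = 3.1e-06, edgeR). Of the 4 channels tested there, 2 were lower and 1 was higher, where 16.1% of all genes were lower and 19.9% higher. Against the 14 HC-like barcodes of the same libraries, 9 of them holding Slc1a3, cHC-like cells were lower in Kcnj10 (-4.28) and Kcnj16 (-2.73), and 1 of the 4 channels tested was higher. Of all genes, 20.1% passed in that comparison. In fibrocyte-like cells Kcnj10 was lower than in SC-like cells by -7.31 and than in nonsensory epithelial-like cells by -5.54, Kcnj16 by -7.63 and -7.02, and the potassium leak channel Kcnk1 by -5.02 and -5.60. Compared with nonsensory epithelial-like cells, fibrocyte-like cells were higher in the calcium-activated channel Kcnn2 (5.21) and the chloride channel Clcn2 (0.79). Of all genes, 49.1% passed between fibrocyte-like and SC-like cells and 59.0% between fibrocyte-like and nonsensory epithelial-like cells. Kcnj10 was lower in nonsensory epithelial-like than in SC-like cells (-1.61, SE 0.23, adjusted p = 0.0010, edgeR), where 15.8% of all genes passed. 

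WNK kinases act through the kinase SPAK (Stk39), with the adaptor MO25 (Cab39), to switch NKCC1 on and the K-Cl cotransporters off. Of 8 such genes 5 were tested between cHC-like and SC-like cells and 4 were higher in cHC-like cells, Wnk2 by 2.27 (SE 0.58), Cab39 by 1.40 (SE 0.47), Wnk1 by 1.16 (SE 0.28) and Stk39 by 1.08 (SE 0.34), where 19.9% of all genes were higher. Stk39 and Wnk1 were also higher in HC-like than in SC-like cells (1.48, SE 0.24, and 1.28, SE 0.34), where 25.7% of all genes passed. Stk39 was higher in nonsensory epithelial-like than in SC-like cells (1.18, SE 0.28), where 15.8% passed. In fibrocyte-like against SC-like cells Wnk4 (3.94), Stk39 (2.29) and Cab39 (0.64) were higher and Cab39l (-1.005) lower, where 49.1% of all genes passed. Against nonsensory epithelial-like cells, where 59.0% of all genes passed, Wnk4 (1.503) and Stk39 (1.28) were higher and Cab39l (-1.53) and Wnk2 (-0.70) lower. Of 7 other cotransporters, 1 was tested between cHC-like and SC-like cells and was lower, where 16.1% of all genes were lower. In fibrocyte-like against SC-like cells 1 was tested and was lower. Of the 3 tested between fibrocyte-like and nonsensory epithelial-like cells 1 was lower, and Slc12a4 (KCC1) was higher (2.08, SE 0.31). Between groups, 0 of the 17 listed genes tested in nonsensory epithelial-like cells, 0 of 16 in fibrocyte-like cells and 0 of 7 in SC-like cells passed. Of all genes, 0.0206 to 0.977%, 0.0211 to 5.21% and 6.31% passed there.

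Across the 13 classes, the patterns most like those of the 5 genes were read as the Pearson correlation of mean log2(CPM + 1), a description over classes that share libraries. For Gjb2 they were Hsd17b6 (0.96), Ism1 (0.95), Gjb6 (0.95), 6030407O03Rik (0.95) and Tmem211 (0.93). For Gjb6 they were Fbxo2, 9230102O04Rik, Kcnj16 and Nckap5 (0.96 each) and Gm27151 (0.95). The pattern of Slc12a7 was nearest to Ficd (0.97), Mettl22 (0.95), Enho, Pomgnt2 and C030037D09Rik (0.94 each), that of Slc12a2 to Tmem245, Papss1 and Gpn3 (0.95 each), Gnptab and Xab2 (0.94 each), and that of Gja1 to Thbd (0.99), Panx3, Ooep, Ptgis and 3110079O15Rik (0.97 each). Between members, Slc12a7 stood at 0.78 with Gjb6 and 0.66 with Gjb2, Slc12a2 at 0.21 to 0.24 with those 3, and Gja1 below 0 with all 4.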

How the data were processed

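Single-cell RNA libraries of the organ of Corti (10x Chromium) were analysed from the deposited UMI counts per gene and barcode, whole numbers that the authors made with Cell Ranger on the genome build mm10 and did not normalize. The version of Cell Ranger is not given in the sources used here. A barcode was dropped for fewer than 500 genes (1954 of 8061) or for a mitochondrial share of 25% or more (84). Scrublet, run per library at an expected 0.8% doublets per 1000 barcodes, marked 53 more (0.88%). Hemoglobin genes made up 91.1 to 95.0% of UMIs among barcodes that missed the gene minimum. Cells were clustered with scanpy 1.11.5 (Python 3.11.15) on 2000 variable genes, 30 principal components, 15 neighbours and Leiden resolution 1.0. Classes were named from at least 3 markers of a list. A marker counted if found in at least 25% of the cells of a cluster, at 2 times or more its level in all other cells (5 CPM added to both). A marker of the list also had to be among the 10 leading genes of the cluster. Names were rebuilt from markers, since no annotation of cells was used here.

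UMIs were summed per library and class and tested with edgeR 4.0.16 (R 4.3.3; TMM scaling, filterByExpr, quasi-likelihood test, Benjamini-Hochberg over all genes tested, threshold 0.05). Class comparisons had the library as a block. DESeq2 1.42.0 and other settings were alternatives. The edgeR test was also run on simulated counts, for cHC-like against SC-like and nonsensory epithelial-like against SC-like cells only. Intervals cover counting error only. The 5 genes, the lists and the tests were chosen with earlier results of these data known. Genes named are the 5 members, every listed gene past the threshold in a class comparison (at most 10 per list and comparison), some of which are not reported here, and the 5 genes most like each member over 13 classes (13489 genes with a mean of at least 10 CPM in some class).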

Additional observations from a re-analysis of the deposited data

Results flagged for a closer look

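Some signal lay outside the named classes. The unnamed Otos cluster held Gjb2 at 3380.0 CPM (135 cells), against 1036 CPM in the highest named class, and Gjb6 at 1428 CPM against 874 CPM. An unnamed cluster of 40 cells led by Ptgds and Slc47a1, of which 28 came from the library labelled as Coch + Tmx P26 rep 3, held Gjb6 at 1179 CPM. An unnamed cluster of 40 cells led by Cldn5 and Rgs5 held Gja1 at 126 CPM, against 123 CPM in osteoblast-like cells.

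The 1954 barcodes under the gene minimum also held UMIs of all 5 genes. Gjb2 stood there at 9.71 CPM (124 UMIs), Gjb6 at 10.1 CPM (129 UMIs), Slc12a7 at 3.05 CPM (39 UMIs), Slc12a2 at 0.392 CPM (5 UMIs) and Gja1 at 0.235 CPM (3 UMIs). These levels of Gjb2 and Gjb6 are close to those of macrophage-like cells, 11.8 and 8.31 CPM.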

How the results depend on the processing

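Of 661 values of the 5 genes under other settings, 574 kept their direction and side of the threshold, 17 fell short of it, 20 newly passed it, 14 untested values moved and 36 turned direction, and 12 of 50 results never changed. Where a call changed, the cause was not tested. With a mitochondrial limit of 10%, no cluster was named SC-like or HC-like, and a cluster of 178 cells took the cHC-like name. Comparisons with SC-like or HC-like cells, cHC-like against SC-like included, were therefore not run at that limit. The median mitochondrial share was 5.58% in SC-like, 10.5% in cHC-like and 14.5% in HC-like cells. Counts of the genes past the threshold moved as follows. For HC-like against SC-like cells it was 3 in place of 0 with the Slc1a3-poor barcodes, a count that this split itself fixes (0 to 1 leaving out each library). For cHC-like against HC-like cells it was 0 in place of 3 without doublet removal. For nonsensory epithelial-like against SC-like cells it was 3 in place of 1 with no filter on low counts (1 to 2 leaving out libraries). In SC-like cells Coch + Tmx P33 against Coch P12 gave 1 in place of 0 at Leiden resolution 2.0. In nonsensory epithelial-like cells Coch + Tmx P33 against Coch P12 gave 1 in place of 0 at resolution 2.0, and Coch + Tmx P26 against Coch P12 gave 1 with DESeq2, with no filter and at resolution 2.0 (0 to 1 leaving out libraries). In fibrocyte-like cells Coch + Tmx P33 against Coch P12 gave 0 in place of 1 with DESeq2 and at resolution 2.0 and 2 with no filter (0 to 2 leaving out libraries), and Coch + Tmx P26 against Coch P12 gave 0 with DESeq2, at resolution 2.0 and with only the 2 groups in the fit, and 2 with no filter (0 to 2 leaving out libraries).

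Log2 differences that turned direction were these, with none past the threshold outside the Slc1a3-poor barcodes. In HC-like against SC-like cells Slc12a7 was -0.65 with at least 10 cells per library, an untested value of 1 library, and Gjb2 was -3.99 and Slc12a7 -1.85 with the Slc1a3-poor barcodes. At Leiden resolution 2.0, Gjb6 was -0.39 in nonsensory epithelial-like against SC-like cells and Slc12a2 was 0.067 in fibrocyte-like against SC-like cells (0.048 with DESeq2, 0.019 with no filter). At the same resolution Coch + Tmx P33 against Coch P12 gave Gjb2 0.51 in nonsensory epithelial-like cells and Gjb2 0.97, Gjb6 1.47 and Slc12a2 0.25 in fibrocyte-like cells, where Coch + Tmx P26 against Coch P12 gave 1.57, 1.85 and 0.24. In the Otol1 cluster alone Coch + Tmx P33 against Coch P12 gave Gjb6 -0.24 and Slc12a2 0.40, and Coch + Tmx P26 against Coch P12 gave Slc12a2 0.87.

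Leaving out each library in turn gave ranges that crossed 0 for Gjb6 in HC-like against SC-like cells (-1.13 to 0.42) and Slc12a2 in fibrocyte-like against SC-like cells (-0.38 to 0.34). In SC-like cells Coch + Tmx P33 against Coch P12 gave -1.04 to 0.42 for Gjb6 and -0.54 to 0.085 for Slc12a7. In nonsensory epithelial-like cells it gave -0.57 to 0.096 for Gjb2, -0.19 to 0.59 for Gjb6 and -0.87 to 0.074 for Slc12a2, Coch + Tmx P26 against Coch P12 gave -0.25 to 0.31 for Gjb2 and -0.21 to 0.14 for Slc12a2, and Coch + Tmx P33 against Coch + Tmx P26 gave -0.69 to 0.046 for Gjb2, -0.67 to 0.051 for Gjb6 and -0.85 to 0.099 for Slc12a2. In fibrocyte-like cells these 3 comparisons gave -0.33 to 0.055 for Slc12a2, then -2.38 to 0.54 for Gjb2 and -2.14 to 0.39 for Gjb6, then -0.046 to 0.41 for Slc12a7.

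Counts over all genes moved by over 1.5 times in these cases. With DESeq2 they were 412 in place of 2066 (cHC-like against SC-like) and 254 in place of 1117 (cHC-like against HC-like, 169 without doublet removal). With no filter they were 1554 in place of 503 (HC-like against SC-like, 1343 with the Slc1a3-poor barcodes), 1836 in place of 919 (nonsensory epithelial-like against SC-like), 4931 in place of 2908 and 7077 in place of 4589 (fibrocyte-like against SC-like and nonsensory epithelial-like). Between groups the no-filter counts were 408 in place of 178 in SC-like cells (338 at resolution 2.0), 544, 405 and 125 in place of 95, 36 and 2 in nonsensory epithelial-like cells, and 865, 904 and 81 in place of 466, 494 and 2 in fibrocyte-like cells (289, 308 and 5 at resolution 2.0). In nonsensory epithelial-like cells they were 309, 22 and 0 with only the compared groups, 43, 20 and 0 in the Otol1 cluster, 79 and 8 with DESeq2 in the last 2 comparisons and 23 and 1 there with a mitochondrial limit of 10%. Coch + Tmx P33 against Coch + Tmx P26 in fibrocyte-like cells gave 14 with DESeq2, 17 with only these groups and 0 without doublet removal.

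Replicate numbers are shared by only 2 pairs of libraries, whose deviations correlated at 0.078 in SC-like, 0.064 in nonsensory epithelial-like and 0.028 in fibrocyte-like cells. So few pairs cannot tell whether libraries of the same number share more than the number. With the replicate number as a block, Coch + Tmx P33 against Coch P12 gave 1 of the genes in place of 0 in nonsensory epithelial-like cells and 2 in place of 1 in fibrocyte-like cells, and 392, 800 and 733 genes in all in place of 178, 95 and 466 in SC-like, nonsensory epithelial-like and fibrocyte-like cells.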
